A study of Homo sapiens with 9 samples.

Results

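EVI1 is a zinc-finger transcription factor that works through partner proteins, and 10 genes of such partners were examined here after EVI1 knockdown in leukemia cells. They encode the CtBP corepressors (CTBP1, CTBP2), class I histone deacetylases (HDAC1, HDAC2), histone H3 lysine 9 methyltransferases (SUV39H1, EHMT2), de novo DNA methyltransferases (DNMT3A, DNMT3B) and histone acetyltransferases (KAT2B, CREBBP). The list was set by gene name and by no measured value, but it was chosen with earlier results of these data known. All 10 were found by symbol among the 16612 genes of the deposited count table, and all 10 were among the 16312 genes that passed the filter on low counts.

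The cells were HNT34, a human acute myeloid leukemia (AML) line with a 3q26 rearrangement and high EVI1 expression. Cells received lentiviral vectors that carried sh#16 or sh#87 against EVI1 or a control hairpin without a target (NT), and RNA was sequenced 3 days after selection, with 3 libraries per group. All groups share the vector, which also carries a red fluorescent protein and puromycin resistance, so NT is a control for transduction and selection and untransduced cells were not analysed here. In 1 field of the labels the sh#87 libraries carry the number 18, whereas their titles give 87, which is used here. The comparison of interest is between cells with EVI1 and cells with less EVI1, made with both shRNAs together and with each alone.

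EVI1, the product of MECOM, binds DNA through separate sets of zinc fingers and carries short motifs that hold the CtBP proteins. CtBP bridges DNA-bound factors to histone deacetylases, the demethylase LSD1 and lysine 9 methyltransferases, which together close chromatin. Direct contacts of EVI1 with SUV39H1, EHMT2 and the DNMT3 enzymes are known, and the acetyltransferases KAT2B (PCAF) and CREBBP (CBP) acetylate EVI1 itself. In AML, rearrangement at 3q26 places MECOM under a foreign enhancer, and DNMT3A, CREBBP and KAT2B belong to the chromatin machinery that normal blood stem cells also use.

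The knockdown was visible in the targeted gene. MECOM stood at 505 ± 65.4 CPM (SD, n = 3; CPM is the count scaled to library size with TMM factors) in NT, at 144 ± 1.43 CPM in sh#16 (n = 3) and at 107 ± 1.72 CPM in sh#87 libraries (n = 3), a log2 fold change of -2.00 with both shRNAs (standard error, SE, 0.14, edgeR adjusted p = 9.18e-07). Depth ran from 17096170 to 43502389 counts per library. The NT libraries differed more among themselves than the others, with a biological coefficient of variation of 25.0% against 3.75% in sh#16 and 6.95% in sh#87. Mitochondrially encoded genes took 15.9% of counts in NT replicate 1, 11.5% in NT replicate 2 and 4.69% in NT replicate 3, against 2.69% to 2.88% in sh#16 and 4.62% to 5.97% in sh#87 libraries. Of 8 myeloid leukemia markers, 6 were measured, all above 1 CPM on average, and their summed level was 1763 to 1863 CPM in NT, 418 to 428 CPM in sh#16 and 260 to 270 CPM in sh#87. Most of that sum was PTPRC (855, 142 and 99.99 CPM on average in NT, sh#16 and sh#87) and CD34 (731, 116 and 42.4 CPM), whereas CD33 stood at 42.7, 37.99 and 35.1 CPM and CEBPA at 37.9, 74.7 and 49.5 CPM. The lymphoid marker CD79A stood at 26.3, 3.76 and 1.31 CPM and CD3E at 9.0, 4.75 and 3.07 CPM. The 4 measured epithelial or stromal markers summed to 341 to 360, 175 to 179 and 132 to 137 CPM, and COL1A1 within them went from 0.116 CPM in NT to 26.4 and 29.3 CPM. These levels moved with the groups, their part in the results below was not tested, and in bulk RNA fewer cells of a type and less RNA per cell cannot be told apart.

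EVI1 knockdown was accompanied by lower RNA of 5 of the 10 partner genes, CTBP2, HDAC2, DNMT3A, KAT2B and CREBBP, which were left with 20.9% to 40.9% of their NT levels with both shRNAs. A single member, EHMT2, was called higher, at 125% of NT, a call lost in 6 of 9 fits with a library left out. CTBP1, HDAC1, SUV39H1 and DNMT3B did not pass the test with both shRNAs, whose spread includes the difference between sh#16 and sh#87. DNMT3B stood at 124% of NT and passed in an edgeR fit of 3 groups (adjusted p = 7.03e-04). In 3 of the 5 functional pairs, a gene that fell stood beside a relative that did not pass with both shRNAs. These were CTBP2 beside CTBP1, HDAC2 beside HDAC1 and DNMT3A beside DNMT3B. With each shRNA alone, some of these relatives were called. HDAC1 was higher with sh#16 (adjusted p = 0.00660) and lower with sh#87 (adjusted p = 0.0348, a call lost in some fits). DNMT3B was higher with sh#16 (adjusted p = 4.38e-05). How often pairs among all genes split in this way was not tested. Both acetyltransferase genes fell, by close amounts. Genes were called changed at an adjusted p of at most 0.05 by edgeR's quasi-likelihood test.

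Against all genes the count of changed members was not high, since 72.1% of the 16312 genes tested changed with both shRNAs, 37.0% of them higher and 35.2% lower as shares of all tested, and 6 of the 10 members did. All 5 members that fell did so by a log2 fold change of at least 1, a size that 17.9% of all genes reached in that direction. At the stricter limits of an absolute log2 fold change of 2 and an adjusted p of 0.01, the cut of the study's text for changed transcripts, here called differentially expressed genes (DEGs), which held for 15.4% of all genes, only DNMT3A was called. It was also the only DEG among the members with sh#16 alone, beside 12.8% of all genes, and with sh#87 alone, beside 18.9%. The median log2 fold change of the members was -0.69 beside 0.05 over all genes, while the median size of change was 0.81 beside 0.83. The 5 genes that fell lay below every NT library in all 6 knockdown libraries, as did 32.1% of all genes, and none of the 10 lay above every NT library, as did 33.9%. Within NT, replicate 1, with the largest mitochondrial share, was the lowest library for CTBP1, HDAC1, SUV39H1, EHMT2 and DNMT3B and the highest for HDAC2, DNMT3A and KAT2B, and the part of this in the results was not tested.

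**Figure D1:**
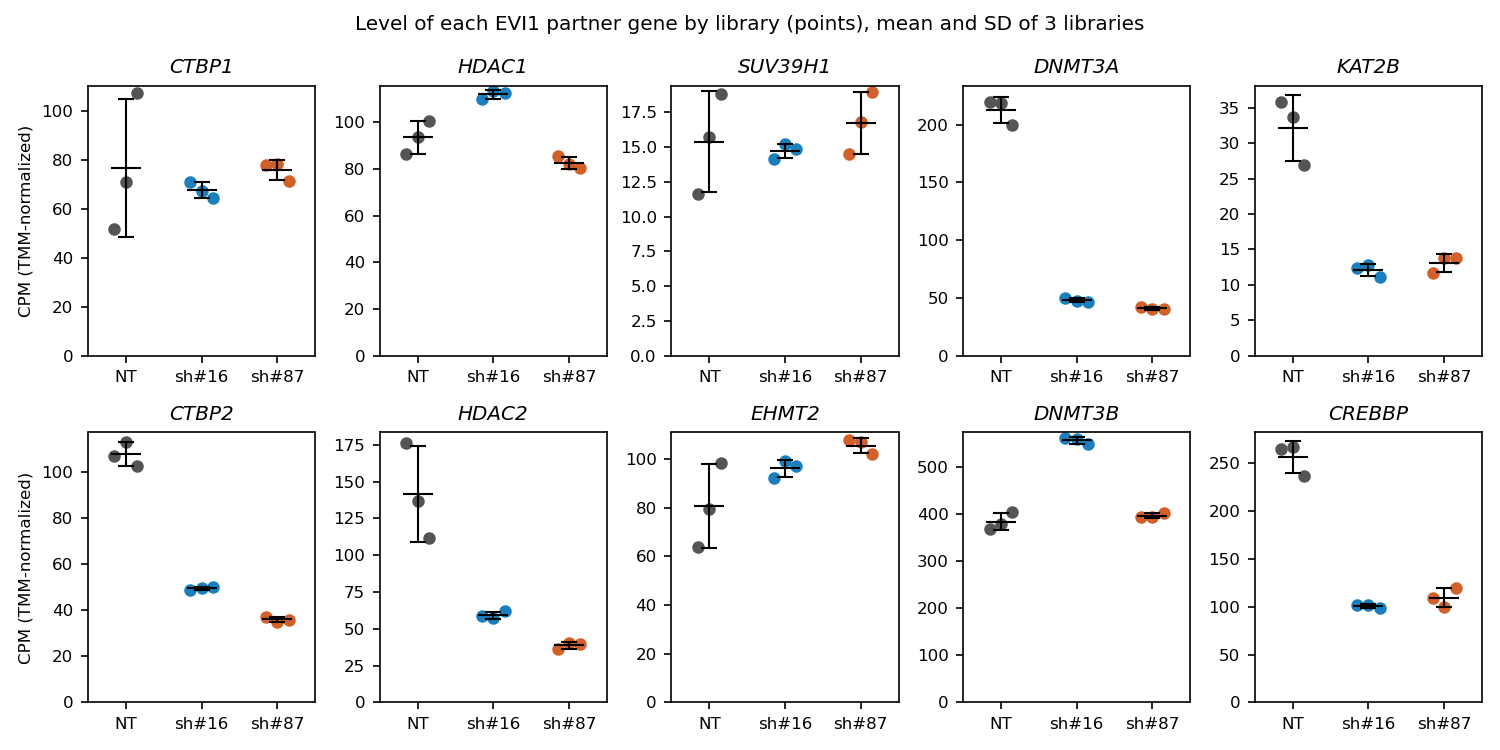
CPM (y axis, linear, from 0) of each partner gene in the 3 NT, 3 sh#16 and 3 sh#87 libraries (x axis), with points for libraries and bars for the mean and SD. CTBP2, HDAC2, DNMT3A, KAT2B and CREBBP show no overlap between NT and either knockdown group, whereas NT libraries of CTBP1 spread from 51.7 to 107 CPM around all 6 knockdown libraries.

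CtBP proteins are the classical EVI1 corepressors, and their genes behaved differently. CTBP2 (chr10:124984317-125162463, minus strand, GRCh38.p14) measured 107, 113 and 103 CPM in NT, 48.8, 49.6 and 50.1 CPM in sh#16 and 37.1, 35.1 and 35.9 CPM in sh#87 libraries. Its NT libraries lay close together and far above both knockdown groups, and every sh#87 library was below every sh#16 library. CTBP2 fell by 1.33 on the log2 scale with both shRNAs (SE 0.14, adjusted p = 1.19e-05), to 45.9% of NT with sh#16 and 33.4% with sh#87. The difference between the shRNAs, a log2 fold change of -0.46, passed its own test (adjusted p = 9.18e-04).

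CTBP1 (chr4:1211445-1250355, minus strand) measured 51.7, 71.3 and 107 CPM in NT, 71.2, 67.4 and 64.7 CPM in sh#16 and 78.0, 78.6 and 71.4 CPM in sh#87 libraries. The knockdown libraries fell inside the wide NT range. With both shRNAs the log2 fold change was -0.10 (SE 0.18, adjusted p = 0.650). It was -0.18 (adjusted p = 0.463) with sh#16 and -0.02 (adjusted p = 0.946) with sh#87, and without NT replicate 3 these became 0.12 and 0.29, the latter with an adjusted p of 0.0397. Without NT replicate 1, the sh#16 value became -0.42 (adjusted p = 0.0256), so CTBP1 had no stable direction in these libraries. Between the shRNAs it was at 0.17 (adjusted p = 0.586), and at 0.18 (adjusted p = 0.0122) in a fit of those 2 groups alone.

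Genes that overlap the CtBP genes on the opposite strand were also measured. ZRANB1, a deubiquitinase gene that overlaps CTBP2, held 97.8% as many counts as CTBP2 over the 9 libraries and fell by 0.74 (adjusted p = 1.24e-04), a smaller fall than that of CTBP2. CTBP1-DT, a noncoding transcript overlapping CTBP1, held 27.8% as many counts as CTBP1 and fell by 0.54 (adjusted p = 5.13e-04). The libraries were strand-specific, but the strand setting of the counting is not given in the sources used here, so counts of each overlapping pair are uncertain to that extent.

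HDAC1 and HDAC2 are closely related catalytic subunits of the NuRD, SIN3 and CoREST corepressor complexes. HDAC2 (chr6:113933028-113971148, minus strand) measured 176, 137 and 112 CPM in NT, 58.6, 57.4 and 61.8 CPM in sh#16 and 36.3, 40.4 and 39.8 CPM in sh#87 libraries. The NT libraries spread widely, yet the lowest of them was above every knockdown library, and the shRNA groups did not overlap. HDAC2 fell by 1.53 on the log2 scale (SE 0.20, adjusted p = 6.05e-05), to 41.8% of NT with sh#16 and 27.4% with sh#87. The further fall with sh#87, a log2 fold change of -0.61 against sh#16, had an adjusted p of 0.0121.

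HDAC1 (chr1:32292083-32333626, plus strand) measured 86.3, 93.5 and 100.3 CPM in NT, 109.6, 113 and 112.6 CPM in sh#16 and 85.4, 82.0 and 80.2 CPM in sh#87 libraries. The sh#16 libraries were thus the highest and the sh#87 libraries the lowest, with NT between them and no overlap among the 3 groups. HDAC1 rose with sh#16, by 0.26 on the log2 scale (SE 0.07, adjusted p = 0.00660). With sh#87 it fell by 0.18 (SE 0.07, adjusted p = 0.0348), a call that was lost without NT replicate 2 (adjusted p = 0.0751), without sh#87 replicate 2 (adjusted p = 0.0943) and without sh#87 replicate 3 (adjusted p = 0.119). Upper-quartile normalization took the sh#87 value to -0.06 (adjusted p = 0.421), and the call was also lost at a mean of at least 10 counts (adjusted p = 0.0502) and in a fit of sh#87 and NT alone (adjusted p = 0.106). The direct difference between the shRNAs was -0.44 (adjusted p = 0.00169), and with both as 1 group HDAC1 was at 0.06 (SE 0.14, adjusted p = 0.722).

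SUV39H1 lays down the trimethyl mark on histone H3 lysine 9, and EHMT2 (G9a) the mono- and dimethyl marks. SUV39H1 (chrX:48695554-48709016, plus strand) was among the lowest members, at 11.6, 15.7 and 18.8 CPM in NT, 14.2, 15.2 and 14.8 CPM in sh#16 and 14.5, 16.8 and 18.9 CPM in sh#87 libraries. All groups overlapped, on 270 to 702 counts per library. Its log2 fold change was 0.03 (SE 0.16, adjusted p = 0.873) with both shRNAs, -0.07 (adjusted p = 0.741) with sh#16 and 0.12 (adjusted p = 0.538) with sh#87, and no difference of SUV39H1 was detected.

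EHMT2 (chr6:31879759-31897698, minus strand) measured 63.7, 79.6 and 98.4 CPM in NT, 92.3, 99.2 and 97.0 CPM in sh#16 and 107.6, 106.9 and 101.9 CPM in sh#87 libraries. The sh#87 libraries were all above NT, whereas NT replicate 3 lay inside the sh#16 range. The rise with both shRNAs was 0.32 on the log2 scale (SE 0.12, adjusted p = 0.0374). It rested on small margins, as leaving out 1 library ended the call in 6 of 9 cases. Without NT replicate 1 the value fell to 0.17 (adjusted p = 0.181). In the other 5 it stayed at 0.31 to 0.33, with adjusted p = 0.103 without NT replicate 2, 0.0512 without sh#16 replicate 2, and 0.0616, 0.0604 and 0.0536 without sh#87 replicates 1, 2 and 3. With sh#87 alone EHMT2 rose by 0.39 (adjusted p = 0.0235), which was lost without NT replicate 2 (adjusted p = 0.0653), sh#87 replicate 1 (adjusted p = 0.0594) or sh#87 replicate 2 (adjusted p = 0.0580). The sh#16 value, 0.25, did not pass (adjusted p = 0.112). It was 0.094 (adjusted p = 0.356) without NT replicate 1, 0.40 (adjusted p = 0.00168) without NT replicate 3 and 0.36 (adjusted p = 0.0280) with upper-quartile normalization. The shRNAs were not shown to differ for EHMT2 (0.13, adjusted p = 0.473), except in a fit of those 2 groups alone (0.15, adjusted p = 0.0137).

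De novo DNA methyltransferases set new cytosine methylation, and DNMT3A is among the genes most often mutated in AML. Windows of 250 bases before the start listed by RefSeq (GRCh38.p14) are shown for these enzymes and, further below, for the acetyltransferases. They were picked because the first 2 genes parted while the second 2 moved together. Any part of the windows in this was not tested. The DNMT3A window is chr2:25342591-25342840 on the minus strand and the DNMT3B window is chr20:32779602-32779851 on the plus strand, a start that lies inside the annotated DNMT3B gene. Letters run 5′ to 3′ along the gene's own strand, and capitals mark GATGAG in either orientation, the core of a motif bound by the second zinc-finger domain of EVI1.
DNMT3A: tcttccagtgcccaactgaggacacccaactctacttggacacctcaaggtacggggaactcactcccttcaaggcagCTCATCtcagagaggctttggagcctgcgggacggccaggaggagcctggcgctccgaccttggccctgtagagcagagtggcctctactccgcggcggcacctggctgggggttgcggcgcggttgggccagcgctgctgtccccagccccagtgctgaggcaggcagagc
DNMT3B: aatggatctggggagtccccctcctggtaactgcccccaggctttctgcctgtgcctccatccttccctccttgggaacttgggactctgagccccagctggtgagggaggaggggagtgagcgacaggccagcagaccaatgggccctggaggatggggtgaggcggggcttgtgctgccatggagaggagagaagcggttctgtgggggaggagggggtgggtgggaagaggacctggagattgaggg
The DNMT3A window holds 65.6% G and C with 12 CpG dinucleotides, and the DNMT3B window 64.0% with 3. Over the 27305 windows of all genes the median was 57.6% with 10 CpG.

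DNMT3A (chr2:25227874-25342590, minus strand) had the largest change of the 10 members. It measured 219.5, 219.0 and 199.3 CPM in NT, 50.0, 47.3 and 46.6 CPM in sh#16 and 42.2, 40.4 and 40.6 CPM in sh#87 libraries. Every group was tight, and the 6 knockdown libraries lay far below NT. DNMT3A fell by 2.26 on the log2 scale with both shRNAs (SE 0.09, adjusted p = 3.64e-08), and its log2 fold change was -2.15 with sh#16 (adjusted p = 2.84e-08) and -2.37 with sh#87 (adjusted p = 1.07e-08). The sh#87 libraries were lower than the sh#16 libraries by 0.22 (adjusted p = 0.0236), a difference that 5 of 6 omissions of a library ended, with adjusted p = 0.0912 without sh#16 replicate 1, 0.0626 and 0.0512 without sh#16 replicates 2 and 3, and 0.0806 and 0.0803 without sh#87 replicates 2 and 3.

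DNMT3B (chr20:32762385-32809356, plus strand) did not follow it. Its libraries measured 368.5, 378.2 and 404.9 CPM in NT, 560.4, 559.8 and 547.9 CPM in sh#16 and 392.8, 393.3 and 402.6 CPM in sh#87. The sh#16 libraries stood above all others, while sh#87 lay within the NT range. DNMT3B rose by 0.53 on the log2 scale with sh#16 (SE 0.06, adjusted p = 4.38e-05) and was at 0.05 (SE 0.06, adjusted p = 0.498) with sh#87. The shRNAs differed by -0.49 (adjusted p = 5.94e-04). With both as 1 group the value was 0.31 (SE 0.15, adjusted p = 0.0907), which passed in a fit of 3 groups (0.29, adjusted p = 7.03e-04) and with upper-quartile normalization (0.42, adjusted p = 0.0265).

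**Figure D2:**
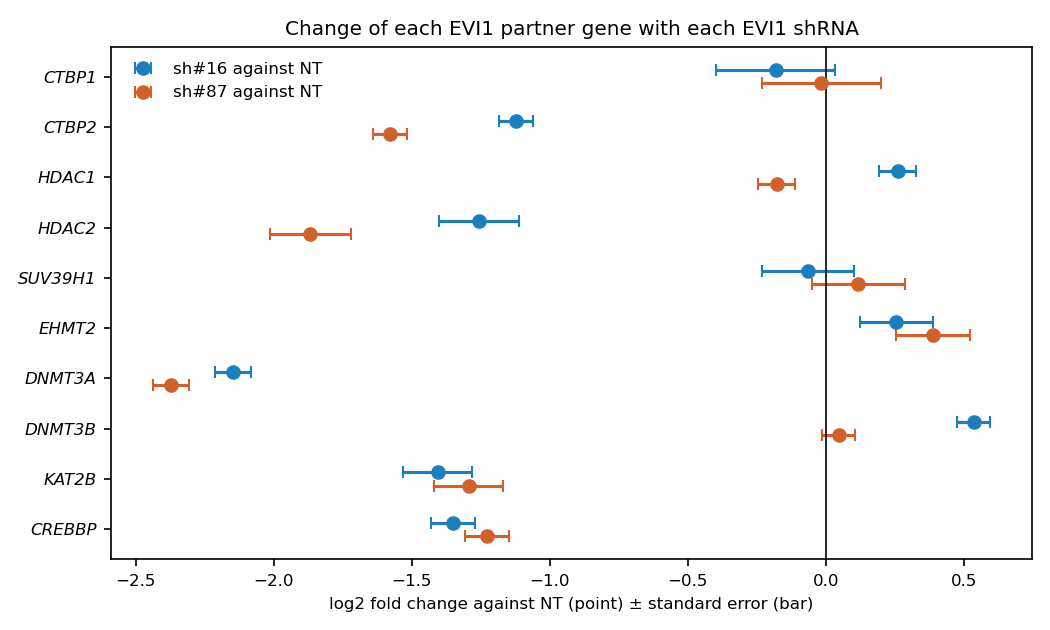
Log2 fold change against NT (x axis) of each partner gene with sh#16 and with sh#87, as points with bars of 1 SE from edgeR; both comparisons share the 3 NT libraries. Both points lie below -1 for CTBP2, HDAC2, DNMT3A, KAT2B and CREBBP, and HDAC1 lies on opposite sides of 0 with the shRNAs, at 0.26 and -0.18.

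KAT2B and CREBBP add acetyl groups to histones and to transcription factors, KAT2B as a subunit of the SAGA-like coactivator complexes and CREBBP as a broad coactivator at enhancers. The KAT2B window is chr3:20040196-20040445 on the plus strand and the CREBBP window is chr16:3880714-3880963 on the minus strand, shown as above; neither holds a GATGAG match.
KAT2B: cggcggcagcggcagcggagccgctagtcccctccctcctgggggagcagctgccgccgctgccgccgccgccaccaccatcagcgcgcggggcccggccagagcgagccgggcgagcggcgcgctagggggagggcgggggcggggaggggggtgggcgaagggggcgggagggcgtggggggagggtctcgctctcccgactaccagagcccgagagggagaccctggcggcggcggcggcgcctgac
CREBBP: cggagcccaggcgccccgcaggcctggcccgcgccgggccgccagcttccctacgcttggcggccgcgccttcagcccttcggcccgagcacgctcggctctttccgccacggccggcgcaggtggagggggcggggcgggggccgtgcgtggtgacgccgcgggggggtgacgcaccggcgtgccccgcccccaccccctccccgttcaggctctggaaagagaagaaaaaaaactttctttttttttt
They hold 80.8% and 72.4% G and C, with 33 and 31 CpG dinucleotides.

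CREBBP (chr16:3725054-3880713, minus strand) measured 265, 267 and 237 CPM in NT, 101.5, 101.7 and 98.4 CPM in sh#16 and 108.9, 99.8 and 119.5 CPM in sh#87 libraries. KAT2B (chr3:20040446-20154404, plus strand) measured 35.8, 33.6 and 27.0 CPM in NT, 12.4, 12.8 and 11.1 CPM in sh#16 and 11.7, 13.9 and 13.8 CPM in sh#87 libraries. In both genes the knockdown groups overlapped each other and lay well below NT. CREBBP fell by 1.29 (SE 0.08, adjusted p = 6.20e-07), to 39.2% of NT with sh#16 and 42.7% with sh#87. KAT2B fell by 1.35 (SE 0.11, adjusted p = 3.55e-06), to 37.7% and 40.8%. No difference between the shRNAs was detected for either, with log2 differences of 0.12 (SE 0.08, adjusted p = 0.263) for CREBBP and 0.11 (SE 0.13, adjusted p = 0.523) for KAT2B. Both stayed uncalled in all 15 alternatives, among them a fit of those 2 groups alone.

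Promoter windows of all 10 members were searched on both strands for motifs chosen after the expression values were known. The CTBP2 and DNMT3B windows lie inside the annotated genes and not before their ends. GACAAGATA, a motif of the first zinc-finger domain of EVI1, was in none of the 10 and in 0.0989% of all windows. GAAGATGAG, a motif of the second domain, was also in none, and was in 0.253% of all. GATGAG, contained in the longer motif, was in DNMT3A alone among the members and in 10.2% of all windows. The E-box CACGTG was in CTBP1 and EHMT2 and in 6.46% of all. The GC box GGGCGG was in CREBBP, CTBP2, EHMT2, HDAC1 and KAT2B and in 42.2% of all. A match describes letters in the window only.

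Because a ratio of 2 genes within a library does not depend on normalization, the paired genes were also set against each other by their counts. The ratio of DNMT3B to DNMT3A was 1.68, 1.73 and 2.03 in NT, 11.2, 11.8 and 11.8 in sh#16 and 9.32, 9.72 and 9.92 in sh#87 libraries. DNMT3B was thus the more counted of the pair everywhere, and the knockdown libraries were far above NT with no overlap, a mean log2 shift of 2.55. The ratio of CTBP2 to CTBP1 was 2.07, 1.59 and 0.957 in NT, 0.685, 0.736 and 0.775 in sh#16 and 0.476, 0.447 and 0.503 in sh#87 libraries. It was lower in all knockdown libraries by a mean log2 shift of -1.32, although NT replicate 3 came near to sh#16.

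The ratio of HDAC2 to HDAC1 was 2.04, 1.47 and 1.11 in NT, 0.534, 0.507 and 0.549 in sh#16 and 0.425, 0.493 and 0.496 in sh#87 libraries. All NT libraries had more HDAC2 than HDAC1 counts and all knockdown libraries fewer, a mean log2 shift of -1.58. These counts were not scaled by transcript length, so a ratio above 1 does not rank the 2 genes. Per kilobase of transcript HDAC1 stood above HDAC2 in NT as well, at 44.1 against 14.6 CPM. KAT2B to CREBBP was 0.125 ± 0.0107 (SD, n = 3) in NT, 0.120 ± 0.00642 (SD, n = 3) in sh#16 and 0.120 ± 0.0163 (SD, n = 3) in sh#87 libraries. Its groups overlapped throughout, and the shift of -0.06 was smaller than the spread between libraries. These ratios are descriptions with no test.

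**Figure D3:**
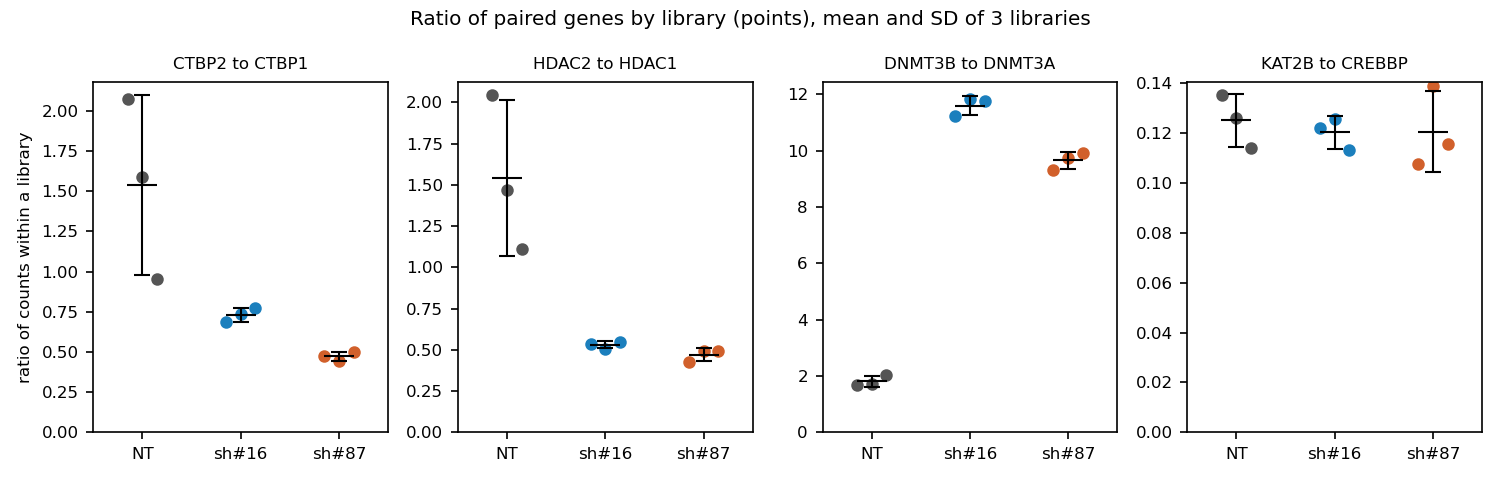
Ratio of counts of paired genes within each library (y axis, linear, from 0) in NT, sh#16 and sh#87, with points for libraries and bars for the mean and SD of 3. The knockdown libraries lie below NT for CTBP2 to CTBP1 and HDAC2 to HDAC1, above it for DNMT3B to DNMT3A (1.81 ± 0.191 in NT against 11.6 ± 0.337 in sh#16), and overlap NT for KAT2B to CREBBP.

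Levels of different genes were compared per length, as CPM per kilobase of the canonical transcript. The order rests on that 1 transcript per gene, such as 2118 bases for HDAC1 and 9737 for HDAC2. Which transcripts the cells expressed was not examined. In NT the order was DNMT3B (88.5 CPM per kilobase), HDAC1 (44.1), CTBP1 (30.9), CREBBP (23.8), DNMT3A (22.6), EHMT2 (20.3), HDAC2 (14.6), CTBP2 (12.7), KAT2B (7.29) and SUV39H1 (5.62). Only DNMT3B and HDAC1, and CTBP2 and KAT2B, were neighbours whose libraries did not overlap. In sh#87 libraries DNMT3B (91.4), HDAC1 (39.0) and CTBP1 (30.5) again led, while DNMT3A stood at 4.36, CTBP2 at 4.25, HDAC2 at 3.99 and KAT2B at 2.97 CPM per kilobase. DNMT3A thus went from above EHMT2 in NT to below SUV39H1 (5.38 in sh#16, 6.11 in sh#87) in both knockdown groups by mean, with 5.09 in sh#16.

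Each shRNA alone called a similar number of members. With sh#16, 2 members were higher (HDAC1, DNMT3B) and 5 lower, beside 36.7% and 35.4% of all genes. With sh#87, 1 was higher (EHMT2) and 6 lower, beside 39.5% and 38.2%, the sixth being HDAC1. The comparisons share the NT libraries, so they are not independent of each other. Set directly against sh#16, sh#87 gave 5 lower members, CTBP2, HDAC1, HDAC2, DNMT3A and DNMT3B, and 0 higher, beside 17.7% and 16.0% of all genes. None of these differences reached a log2 fold change of 1, which 6.62% of all genes passed, or the DEG limits, which 0.454% passed, and MECOM itself was lower with sh#87 by 0.43 (adjusted p = 0.00661). The direct comparison took its spread from all 3 groups, of which NT varied most. In a fit of sh#16 and sh#87 alone, 7 members were called, CTBP1 and EHMT2 being added as higher, beside 9661 of 15685 genes tested.

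The pattern over the 9 libraries was compared between genes by the root-mean-square difference of log2 CPM centred on each gene's mean, among 11118 genes with at least 5 CPM. Closest to DNMT3A were NSD1, a histone H3 lysine 36 methyltransferase gene (0.0615), ZIC2 (0.0761) and KLF3 (0.0792). HDAC2 was closest to URI1 (0.0699), MRPS9 (0.0791) and LDHA (0.0797), and KAT2B to PIK3R1 (0.0800), HGSNAT (0.0830) and ALG13 (0.0865). Among the members themselves KAT2B and CREBBP were the closest pair (0.116), followed by HDAC1 and DNMT3B (0.126).

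Other genes of the complexes in which these partners work were taken from fixed lists, with 95 genes tested, of which 57 were lower, 18 higher and 20 not called with both shRNAs, beside 35.2% lower and 37.0% higher among all genes. Their median log2 fold change was -0.49, between that of the partner genes and that of all genes. In the CoREST and CtBP list, 8 of 12 were lower and 2 higher (median -0.53). The CtBP-binding repressors ZEB1, ZNF644 and ZEB2 stood at -2.68 (adjusted p = 2.40e-07), -1.78 and -1.55. Both CTBP2 and CTBP1 belong with this list, and CTBP1 was not called with both shRNAs. In the NuRD list, 8 of 11 were lower and 0 higher (median -0.49), led by CHD3 (-2.04, adjusted p = 5.93e-07), MTA3 (-1.69) and MBD2 (-0.80). Both HDAC2 and HDAC1 belong to NuRD, and HDAC1 was not called with both shRNAs. The SIN3 list had 4 of 9 lower and 1 higher (median -0.14), with ARID4A at -0.97, ING2 at -0.79 and SIN3A at -0.72. Among other HDAC and NCoR genes, 6 of 12 were higher and 5 lower (median 0.28). HDAC3 rose from 40.1 ± 5.53 CPM in NT (SD, n = 3) to 118 ± 1.35 in sh#16 and 140 ± 9.16 in sh#87, and TBL1XR1 stood at -1.60. HDAC11 was called higher, from 0.179 ± 0.0524 CPM in NT to 1.37 ± 0.352 in sh#16 and 0.720 ± 0.134 in sh#87. Its NT level is near the 0.0959 to 0.111 CPM that 3 counts give there before TMM scaling.

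In the list of H3K9 methylation and its readers, 5 of 9 were lower and 3 higher (median -0.23), with ATF7IP at -1.74, SETDB2 at -1.22 and CBX1 at 0.95. For comparison with EHMT2, its partner EHMT1 fell by 0.23 (adjusted p = 0.0401), and SUV39H2, the relative of SUV39H1, rose by 0.31 (adjusted p = 0.0328); both were picked for their kinship and lie outside the naming rule. DNA methylation and its removal had 4 of 7 lower and 0 higher (median -0.77), among them all 3 TET dioxygenase genes, TET1 (-2.27, adjusted p = 8.63e-06), TET2 (-1.78) and TET3 (-1.60), while the maintenance enzyme gene DNMT1, also outside the rule, was at -0.05 (adjusted p = 0.617). Acetyltransferase and SAGA genes, the company of KAT2B and CREBBP, had 9 of 11 lower and 1 higher (median -0.64), with KAT6B at -2.05 (adjusted p = 1.54e-06), TADA2A at -1.42 and SGF29 at -1.21. EP300, the close relative of CREBBP and likewise outside the rule, fell by 0.56 (adjusted p = 0.00264), less than CREBBP.

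The lists farther from the partners differed from one another. Of 12 SWI/SNF genes 11 were lower and 0 higher (median -0.81), with ARID1B at -1.33, SMARCC2 at -1.19 and ARID2 at -1.14. Of 12 Polycomb genes 5 were higher and 3 lower (median -0.0059), near the shares of all genes, with CBX7 at 1.89, EZH1 at 0.88 and RNF2 at -0.75. Of 12 DNA replication genes, kept apart from the 95, 6 were lower and 2 higher (median -0.37), with RRM2 at 1.43, TYMS at -1.20 and MCM6 at -0.86.

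**Figure D4:**
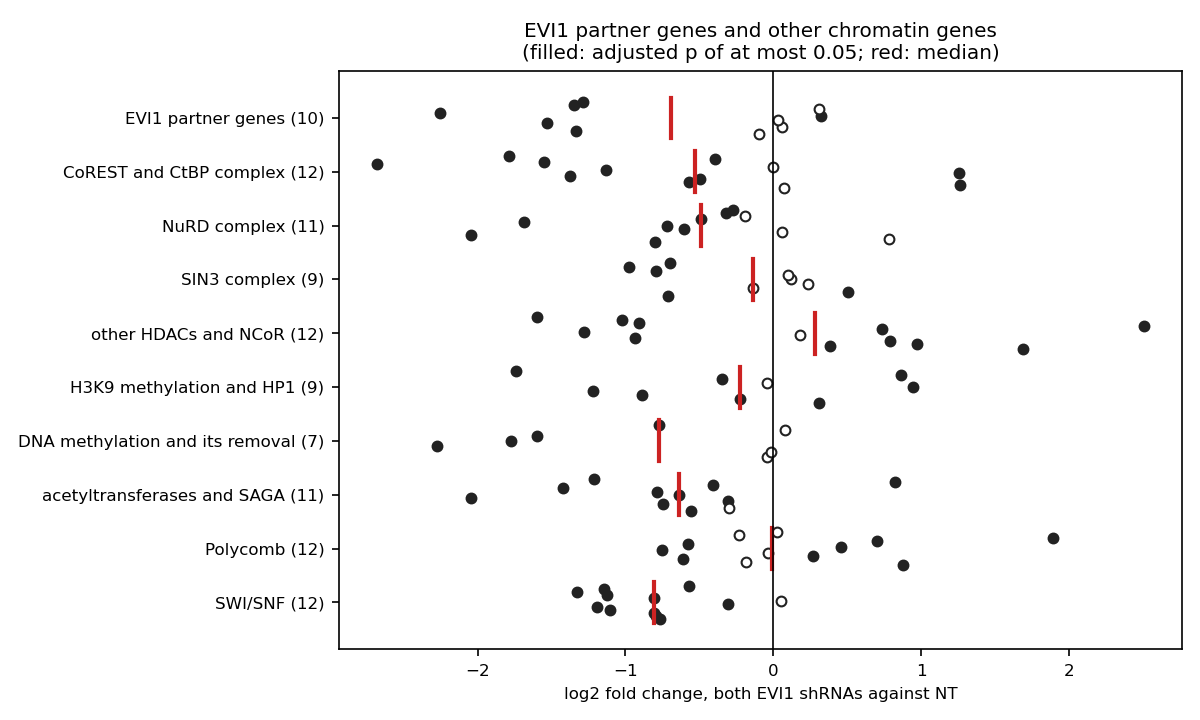
Log2 fold change with both EVI1 shRNAs against NT (x axis) of the 10 partner genes and of the genes of each chromatin list (rows, number tested in parentheses), filled where the adjusted p was at most 0.05 and with the median as a red line. The partner genes split into 5 between -2.26 and -1.29 and 5 between -0.10 and 0.32, and the medians of SWI/SNF and of other HDAC and NCoR genes lie on opposite sides of 0.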

How the data were processed

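RNA of 9 HNT34 libraries was examined, 3 per group by sample title. Estimated counts for each gene symbol were deposited as a single table by the authors, with whole numbers only. The header, set 1 column to the left, names salmon output per library, whereas the methods name STAR gene counts on GRCh38. Libraries were polyA-selected and strand-specific. The summed level of lymphoid markers is not reported here. Whether replicates are separate cultures is not stated, so p-values measure the spread between libraries. In the fit of both shRNAs as 1 group, that spread also holds the difference between sh#16 and sh#87. The SE of DNMT3B was 0.15 in that fit and 0.06 with each shRNA.

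Counts were normalized by TMM, filtered with filterByExpr and tested by the quasi-likelihood test of edgeR 4.0.16 in R 4.3.3, with Benjamini-Hochberg adjustment over 16312 genes; both shRNAs together used a fit of 2 groups, the rest a fit of 3 groups. The code was checked on simulated counts. Alternatives were DESeq2 1.42.0, limma-voom (limma 3.58.1), other normalizations, filters and thresholds, no mitochondrially encoded genes, a replicate block, other groupings and leaving out each library. Replicate numbers did not pair the libraries (correlations of deviations from -0.137 to 0.0826).

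The members, lists and tests were chosen with earlier results of these data known. Named genes were the members, MECOM, list genes that were DEGs, up to 3 genes per list with the largest called change, and the 3 genes closest to each of the 3 members with the largest change. Transcript lengths came from GENCODE (GRCh37 build) and gene positions and promoter windows from RefSeq GRCh38.p14. Counting error alone allows 0.0690 to 0.175 CPM for 3 counts in a library, before TMM scaling.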

Additional observations from a re-analysis of the deposited data

Results flagged for a closer look

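For 5 of the 10 partner genes the effect of sh#87 against NT differed from the effect of sh#16 by a direct test of the difference between the shRNAs (edgeR fit of 3 groups, adjusted over all genes). All 5 were lower with sh#87, beside 17.7% of all genes lower and 16.0% higher. The difference, sh#87 minus sh#16 on the log2 scale, was -0.46 for CTBP2 and -0.61 for HDAC2, both of which fell further with sh#87. It was -0.22 for DNMT3A, the smallest of the 5, and that call did not hold in 5 of 6 fits with a library left out. HDAC1 differed by -0.44, being higher than NT with sh#16 and lower with sh#87, and DNMT3B by -0.49, being higher than NT with sh#16 alone. MECOM was also lower with sh#87 than with sh#16, by 0.43, and the part of that difference in these 5 genes was not tested. No member had a library that stood apart from the others among the 6 knockdown libraries by Dixon's test. That test could hardly find 1 where the shRNA groups lay apart, as they did for CTBP2 and HDAC2. Groups of 3 give it little power.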

How the results depend on the processing

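The falls of CTBP2, HDAC2, DNMT3A, KAT2B and CREBBP were called in 18 of 18 alternatives with both shRNAs and in 15 of 15 with each shRNA alone, with log2 fold changes of -2.32 to -1.18 with both. At the DEG limits 1 member was called with both shRNAs, 1 with sh#16 and 1 with sh#87. Between the shRNAs, HDAC2 and DNMT3A did not pass an adjusted p of 0.01 (0.0121 and 0.0236). No member reached a log2 fold change of 1 or the DEG limits there. With each library left out in turn, members called numbered 5 to 6 for the pooled shRNAs, beside 10543 to 11837 of all genes. They numbered 7 to 8 for sh#16 (beside 10708 to 12801) and 5 to 8 for sh#87 (beside 11948 to 13444). For sh#87 against sh#16 they numbered 4 to 5 (beside 3593 to 4190). These fits tested 16182 to 16554 genes. With the pooled shRNAs, 14 to 19 list genes were higher and 54 to 57 lower. The log2 shifts of ratios then ranged from -1.62 to -1.07 for CTBP2 to CTBP1, -1.79 to -1.36 for HDAC2 to HDAC1, 2.50 to 2.64 for DNMT3B to DNMT3A and -0.12 to 0.0020 for KAT2B to CREBBP. A replicate block was also fitted, although the labels do not show it to be a true pairing. With it the pooled shRNAs gave 6 called members (beside 11087 of 16312 genes) and sh#16 gave 7 (beside 11390). In the same fits sh#87 gave 6 (beside 12384) and the difference of the shRNAs 5 (beside 4613). HDAC1 with sh#87 was the call lost (adjusted p = 0.0714). Values near 0 changed sign; the cause was not tested. CTBP1 with both shRNAs became 0.019 with upper-quartile normalization, which shifted the median of all genes by 0.11, and 0.21 without NT replicate 3. With sh#87 it became 0.11 with upper-quartile normalization, 0.038 with limma-voom, 0.0014 at a mean of at least 10 counts, 0.020 with the replicate block, 0.29 without NT replicate 3 and 0.031 without sh#87 replicate 3, and with sh#16 0.12 without NT replicate 3; without NT replicate 1 the values were -0.33 with both, -0.24 with sh#87 and -0.42 with sh#16. SUV39H1 with both became -0.15 without NT replicate 1 and -0.022 without sh#87 replicate 3. With sh#16 it became 0.041 with upper-quartile normalization and 0.085 without NT replicate 3, and with sh#87 -0.059 without NT replicate 1; the far ends of these ranges were 0.18 with both without NT replicate 3, -0.25 with sh#16 without NT replicate 1 and 0.27 with sh#87 without NT replicate 3. DNMT3B with sh#87 rose to 0.17 (adjusted p = 0.0287) with upper-quartile normalization. HDAC1 with both became -0.0088 without NT replicate 1. SUV39H1 and KAT2B had the fewest counts of the members, 203 to 833 per library.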
